A study of Mus musculus with 8 samples.

Results

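Transcript levels of 9 mesodermal transcription factor genes were examined in 4 mouse fibrosarcoma cell lines: the T-box genes Tbx2, Tbx3, Tbx4, Tbx5, Tbx15 and Tbx18, the paired-type homeobox gene Pitx1, and the odd-skipped zinc-finger genes Osr1 and Osr2. The genes were chosen by name, with earlier results of these data known. Osr2 was picked for its higher level in the lines labelled IRF8 KO. Its difference between the labels is therefore given below as a description with no test. Of the 9 genes, 7 had a row in the count table of 18768 genes, and 6 of these passed the filter on low counts, as did 15153 genes in all. Tbx4 and Tbx5 were not analysed here, and Tbx2 was below the filter. The lines MC010 and MC011 carry the genotype label IRF8 KO and came from IRF8 knock-out mice, and MC654 and MC659 carry the label WT and came from wild-type C57BL/6 mice. All mice had received a subcutaneous injection of the carcinogen methylcholanthrene (MCA) in peanut oil, and the lines were grown from collagenase-digested tumors over at least 10 passages. Whether a line came from 1 tumor is not given in the sources used here. Each line was sequenced as 2 libraries, and the comparison of the labels rests on 2 lines against 2. The age of the mice is not given in the sources used here.

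T-box proteins bind DNA through a shared domain and either activate or repress their targets. In the embryo, Tbx4 and Tbx5 mark the hindlimb and forelimb fields, Tbx2 and Tbx3 act mainly as repressors in limb, heart and mammary tissue and can keep cells out of senescence, and Tbx15 and Tbx18 pattern the mesenchyme of skin, skeleton and urogenital tract. Pitx1 acts upstream of Tbx4 in the hindlimb. Osr1 and Osr2 are expressed in limb, kidney, palate and joint mesenchyme, where Osr1 also marks fibro-adipogenic progenitors. These factors remain in part active in adult fibroblasts, where they differ with the position in the body from which the cells came.

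The libraries held from 74063616 to 116206078 counts, and 3 counts, taken as the floor of a library, corresponded to 0.0262 to 0.0408 CPM, the count of a gene scaled for library size by TMM. These floors cover counting error only. Irf8, the gene knocked out, had RNA against the direction of the labels, with 442 and 347 counts in MC010, 32 and 10 in MC011, and 0 to 2 in the 4 libraries labelled WT. The lines are therefore called by their labels throughout. All 10 mesenchymal markers on the list were present and summed to 6220 to 9570 CPM. Most of that sum was Vim (4530 to 7380 CPM), while Fap was at 0.705 to 4.23 CPM. Single markers on this list differed between the lines in both directions. Pdgfra had a mean of 445 CPM in MC011 and 71.2 CPM in MC010, against 18.8 CPM in MC654 and 17.7 CPM in MC659. Col1a1 was lowest in MC010 (87.3 CPM against 276 to 472 CPM in the other lines). Col1a2 was lowest in MC011 (246 CPM against 779 to 1240 CPM), and Thy1 was highest there (70.2 CPM against 9.23 to 12.4 CPM). The 4 hematopoietic markers in the table summed to 5.72 to 7.37 CPM in the lines labelled IRF8 KO and 9.67 to 11.4 CPM in those labelled WT. Most of that sum was Cd68 (5.25 to 6.74 CPM against 8.25 to 10.1 CPM). Csf1r was at 0.245 to 0.477 CPM against 0.935 to 1.8 CPM. Cd79a, at 10 to 17 counts against 2 to 6, went the other way. Ptprc, which all leukocytes carry, had 18 and 13 counts in MC010, the line with the most Irf8, 0 in MC011 and 1 or 2 in the libraries labelled WT. The 4 endothelial markers summed to 0.464 to 0.911 CPM, and the 3 skeletal muscle markers to 5.17 to 7.67 CPM in the lines labelled IRF8 KO and 0.0824 to 0.211 CPM in those labelled WT. Pax3 made up that sum in MC011, where Myod1 and Des were at 0 counts, and MC010 had both Pax3 (2.44 and 2.5 CPM) and Myod1 (2.45 and 2.77 CPM). MC010 stood apart in the sum of the epithelial list, with 530 and 565 CPM over 5 genes against 34 to 129 CPM in the other libraries. Nearly all of that sum was the keratin genes Krt8 (293 and 274 CPM) and Krt18 (271 and 256 CPM). The adhesion gene Cdh1 was at 2 and 0 counts in MC010. Epcam and Krt14 were highest in MC011, at means of 0.995 and 0.891 CPM, against 0.34 and 0.048 CPM in MC010. The part of these marker differences in the results below was not tested. In bulk RNA, fewer cells with a transcript and less of it per cell cannot be told apart.

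The lines differed in their combinations of these factors, least so MC654 and MC659, which differed mainly in Osr1. Osr2 was present in both lines labelled IRF8 KO and low in both lines labelled WT, Pitx1 was nearly absent from MC010 and present in the other 3 lines, Osr1 did not overlap between any pair of lines, and Tbx15 was highest in MC011. Tbx3 and Tbx18 varied least. A gene was called where its p-value from the edgeR quasi-likelihood test, adjusted over all tested genes by the Benjamini-Hochberg method, was under 0.05 and its log2 difference was above 0.59 in size, which is 1.51-fold. Between the labels, 22.5% of all tested genes were called, and 2 of the 5 tested members other than Osr2 were, both higher in the lines labelled IRF8 KO (Tbx3 and Tbx15). Between MC010 and MC011, which carry the same label, 31.6% of all genes were called, and 4 of the 6 tested members were, all lower in MC010 (Tbx15, Tbx18, Pitx1 and Osr1). Between MC654 and MC659, 4.95% of all genes were called, and 1 of the 6 members was (Osr1, lower in MC654). With so few members, these shares say nothing particular to them. The median size of the log2 difference between MC010 and MC011 was 1.58 over the 5 members other than Osr2 and 0.42 over all tested genes. Between the labels it was 0.75 for those 5 and 0.36 over all genes.

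**Figure D1:**
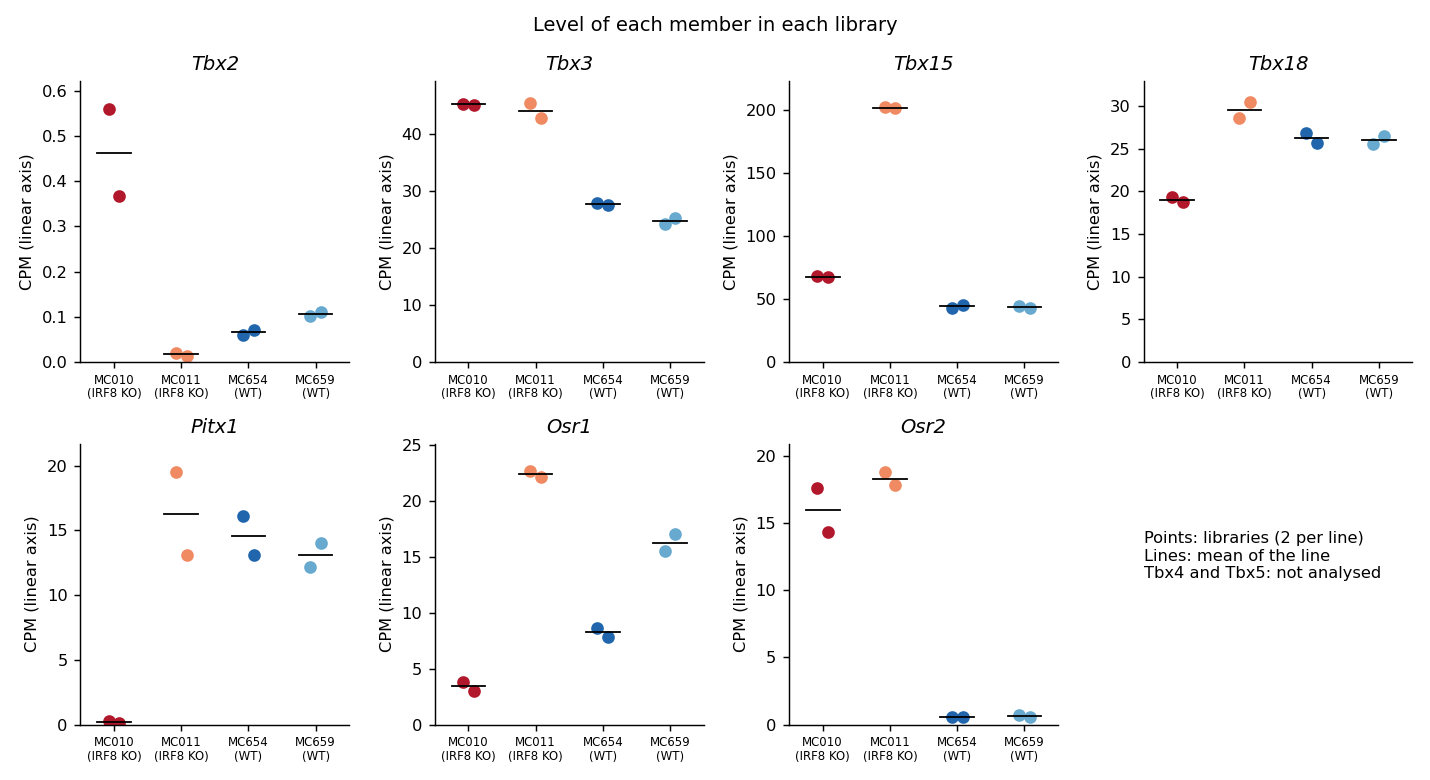
Level of the 7 members with a row in the table, 1 panel per gene. The y axis is CPM on a linear scale from 0, the x axis the 4 lines with their labels; each point is 1 of the 2 libraries of a line and each bar the mean of the line. Osr2 was at 14.3 to 18.8 CPM in the lines labelled IRF8 KO and at 0.529 to 0.736 CPM in those labelled WT, and Pitx1 was at 0.253 and 0.15 CPM in MC010.

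Among the T-box genes, Tbx3 (ENSMUSG00000018604, chromosome 5, 119670669 to 119684724 of mm10), a repressor of the senescence locus Cdkn2a, followed the labels most evenly. The libraries of MC010 were at 45.3 and 45.2 CPM, those of MC011 at 45.5 and 42.8 CPM, those of MC654 at 28 and 27.5 CPM and those of MC659 at 24.3 and 25.2 CPM. The 4 libraries labelled IRF8 KO were all above the 4 labelled WT. The log2 difference between the labels was 0.77 (SE 0.07, n = 4 libraries per label, adjusted p = 0.000112 from edgeR). MC010 and MC011 differed by 0.03 on the log2 scale (SE 0.06, adjusted p = 0.621) and MC654 and MC659 by 0.17 (SE 0.06, adjusted p = 0.0788), so that neither pair of lines with the same label was called. MC011 was higher than its neighbour in level, MC654, by 0.67 (adjusted p = 8.55e-08). The antisense gene Tbx3os1, annotated over Tbx3, had 13 to 106 counts per library, against at least 2142 for Tbx3. Whether reads were counted by strand is not given, so reads of the overlap cannot be told apart. Tbx3os1 was higher in MC010 than in MC011 (log2 difference 1.71, SE 0.48, adjusted p = 0.00591), where Tbx3 was not. With the counts of each line summed, which leaves 2 lines per label, the Tbx3 difference was 0.78 with an adjusted p of 0.104.

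Tbx15 (ENSMUSG00000027868, chromosome 3, 99240381 to 99354259), a regulator of skeletal and dermal mesenchyme, was the most abundant member per length in every line. It was at 202 and 201 CPM in MC011 and at 68.1 and 66.9 CPM in MC010. The WT lines were lower, MC654 at 42.8 and 45.3 CPM and MC659 at 44 and 42.5 CPM. Both labels were thus separated without overlap, but the gap within the IRF8 KO label exceeded the gap between MC010 and the WT lines. MC010 was lower than MC011 by a log2 difference of -1.58 (SE 0.05, adjusted p = 4.18e-13), which is 2.98-fold, and higher than MC654 by 0.62 (SE 0.05, adjusted p = 2.38e-08) and than MC659 by 0.64 (SE 0.05, adjusted p = 1.42e-08). MC654 and MC659 differed by 0.03 (SE 0.05, adjusted p = 0.811). The difference between the labels was 1.62 (SE 0.40, adjusted p = 0.0138). It was no longer called with MC654 left out (1.63, adjusted p = 0.125), with MC659 left out (1.6, adjusted p = 0.136), or with counts summed per line (1.63, adjusted p = 0.222), and with MC011 left out it was 0.62.

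Tbx18 (ENSMUSG00000032419, chromosome 9, 87702800 to 87731260), the paralog of Tbx15 and a marker of somite, epicardial and ureteric mesenchyme, varied little. The libraries of MC010 were at 19.3 and 18.8 CPM and those of MC011 at 28.6 and 30.5 CPM. Those of MC654 were at 26.8 and 25.7 CPM and those of MC659 at 25.6 and 26.5 CPM. MC010 was below the other 6 libraries, and the labels overlapped. MC010 was lower than MC011 by a log2 difference of -0.63 (SE 0.07, adjusted p = 5.78e-07), just past the threshold of 0.59, and the value was -0.59 and not called without library 2 of MC010 or without library 2 of MC011. Between the labels the difference was -0.10 (SE 0.17, adjusted p = 0.662). MC010 differed from MC654 by -0.46 and from MC659 by -0.45, both short of the threshold on size.

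Tbx2 (ENSMUSG00000000093, chromosome 11, 85832551 to 85841948), the closest paralog of Tbx3 and likewise a repressor of Cdkn2a, had few reads. It had 64 and 27 counts in MC010, 2 and 1 in MC011, 5 and 6 in MC654, and 9 and 10 in MC659. MC010 was the highest line, and MC011 was at or under the floor. Against that floor, taken in the MC011 library where 3 counts make the larger CPM, MC010 was at least 12.2-fold higher, MC659 at least 2.81-fold and MC654 at least 1.72-fold. At 0.128 RPKM, a level scaled for library size and for the length of the gene's exons, Tbx2 in MC010 was still far below Tbx3 in the same line, at 6.83 RPKM.

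Pitx1 (ENSMUSG00000021506, chromosome 13, 55825051 to 55836192), the hindlimb homeobox gene, separated MC010 from all other lines. It had 29 and 11 counts in MC010, which is 0.253 and 0.15 CPM. MC011 was at 19.5 and 13.1 CPM, MC654 at 16.1 and 13.1 CPM, and MC659 at 12.2 and 14 CPM. The other 3 lines overlapped with each other. MC010 was 76.5-fold lower than MC011, a log2 difference of -6.26 (SE 0.27, adjusted p = 4.05e-11), and it was lower than MC654 by a log2 difference of -6.09 (adjusted p = 4.38e-11) and than MC659 by -5.94 (adjusted p = 5.86e-11). MC011 was not called against MC654 (log2 difference 0.16, SE 0.16, adjusted p = 0.386) or MC659 (0.32, SE 0.16, adjusted p = 0.0948). Between the labels, where MC010 and MC011 are averaged, the difference was -0.75 (SE 1.23, adjusted p = 0.67), and it was -6.04 with MC011 left out and 0.21 with MC010 left out.

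Osr1 (ENSMUSG00000048387, chromosome 12, 9570116 to 9581500) differed between lines more than between labels. It was at 3.83 and 3.04 CPM in MC010 and at 22.7 and 22.1 CPM in MC011. The WT lines lay between them, MC654 at 8.63 and 7.87 CPM and MC659 at 15.5 and 17 CPM. No 2 lines overlapped, and the order was MC010, MC654, MC659 and MC011. MC010 was 6.44-fold lower than MC011, a log2 difference of -2.69 (SE 0.11, adjusted p = 8.08e-12), and MC654 was 1.97-fold lower than MC659, a log2 difference of -0.98 (SE 0.10, adjusted p = 7.24e-06). MC010 was also lower than its neighbour MC654, by -1.25 (SE 0.11, adjusted p = 8.74e-08). Of the neighbours in this order, only MC659 and MC011 were short of the threshold on size, at 0.46 on the log2 scale (SE 0.09, adjusted p = 0.00055). Between the labels the difference was 0.08 (SE 0.68, adjusted p = 0.943).

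Osr2 (ENSMUSG00000022330, chromosome 15, 35296098 to 35303305), which acts in palate and joint mesenchyme, was the gene picked for its difference between the labels. It was at 17.6 and 14.3 CPM in MC010 and at 18.8 and 17.8 CPM in MC011. MC654 had 0.563 and 0.529 CPM and MC659 0.736 and 0.589 CPM, with 45 to 65 counts per library. The fitted log2 difference between the labels, 4.82, is a description only, and the lines of each label lay close together. Within the labels, where the choice was not made, MC010 and MC011 differed by -0.20 (SE 0.11, adjusted p = 0.125) and MC654 and MC659 by -0.28 (SE 0.23, adjusted p = 0.49). In the same contrast of MC010 with MC011, Osr1 was called and Osr2 was not.

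**Figure D2:**
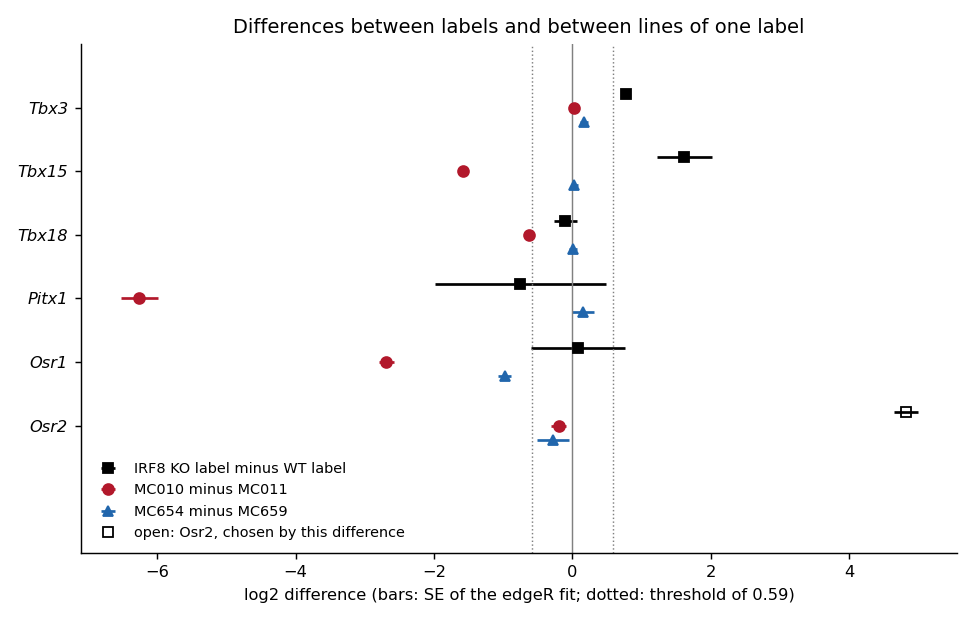
Fitted log2 differences (x axis) of the 6 tested members (y axis) between the labels (squares), between MC010 and MC011 (circles) and between MC654 and MC659 (triangles), with SE bars from the edgeR fit and dotted lines at the threshold of 0.59. Pitx1 lies at -6.26 and Osr1 at -2.69 between MC010 and MC011, while their differences between the labels have SE bars that cross 0; the open square is Osr2, chosen by that difference.

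The balance of Osr1 and Osr2 within a library differed with the line. Per length, Osr1 made up 27.6% and 27.2% of the sum of both genes in MC010, 67.9% and 68.5% in MC011, 96.4% and 96.3% in MC654, and 97.4% and 98.1% in MC659. Osr2 was thus the more abundant of the pair in MC010 only, among the 4 lines. In RPKM, Osr1 had 1.66 and Osr2 4.4 in MC010, against 10.8 and 5.06 in MC011, 3.99 and 0.151 in MC654, and 7.87 and 0.183 in MC659. As Osr2 is in each share, these shares are not independent of how Osr2 was chosen and are a description.

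**Figure D3:**
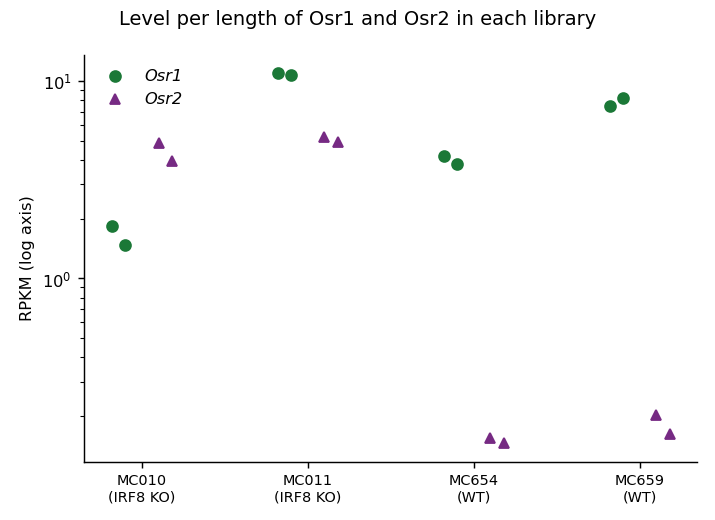
Level per length (y axis, RPKM on a log scale) of Osr1 (circles) and Osr2 (triangles) in each library of the 4 lines (x axis). Osr1 stays above Osr2 in all lines but MC010, where Osr1 had 1.66 and Osr2 4.4 RPKM as means of the line.

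Osr1 and Osr2 resemble each other, which matters for whether reads could be shared between them. The stretches of 180 coding bases with the most identical bases are shown because they are where reads of the paralogs would be hardest to tell apart. They are taken from the GENCODE vM21 transcripts of the same genome build, 5′ to 3′ on the coding strand, and capitals mark the bases at which the genes differ. For Osr1 (coding bases 569 to 748) and Osr2 (coding bases 560 to 739), which is zinc-finger sequence, 29 bases differed and 83.9% were identical.
Osr1: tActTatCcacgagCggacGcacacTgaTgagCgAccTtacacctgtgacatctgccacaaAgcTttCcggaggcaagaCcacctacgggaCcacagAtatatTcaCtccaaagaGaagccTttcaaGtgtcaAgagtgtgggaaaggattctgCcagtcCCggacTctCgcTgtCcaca
Osr2: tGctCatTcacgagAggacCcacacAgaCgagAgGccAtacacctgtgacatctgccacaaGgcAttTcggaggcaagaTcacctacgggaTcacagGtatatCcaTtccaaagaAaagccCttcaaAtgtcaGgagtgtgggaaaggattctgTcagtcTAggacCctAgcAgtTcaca
The longest run of bases that the transcripts shared exactly was 23 bases for Osr1 and Osr2. It was also 23 bases for the T-box paralogs Tbx15 and Tbx18, with 82.8% identity over their best 180 bases, and 14 bases for Tbx2 and Tbx3, with 81.1%.

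Ordered by level per length, Tbx15 led in all 4 lines, at 18, 53.8, 11.8 and 11.6 RPKM in MC010, MC011, MC654 and MC659. In MC011 this was at or above 95.4% of the genes of the table. In MC010, Tbx3 (6.83 RPKM), Osr2 (4.4 RPKM), Tbx18 (4.04 RPKM) and Osr1 (1.66 RPKM) followed, with Tbx2 and Pitx1 under 0.2 RPKM. In MC011, Osr1 came next at 10.8 RPKM, and Tbx3, Tbx18, Pitx1 and Osr2 lay between 5.06 and 6.67 RPKM. In MC654, Tbx18 (5.56 RPKM) and Pitx1 (5.49 RPKM) were followed by Tbx3 (4.19 RPKM) and Osr1 (3.99 RPKM). In MC659, Osr1 (7.87 RPKM) was followed by Tbx18 (5.52 RPKM), Pitx1 (4.94 RPKM) and Tbx3 (3.73 RPKM). Osr2 and Tbx2 were the lowest members in both WT lines. The line pairs across the labels differed at 35.9% (MC010 and MC654), 36.8% (MC010 and MC659), 29.7% (MC011 and MC654) and 30.3% (MC011 and MC659) of all tested genes. Among the 5 members other than Osr2, 4, 4, 3 and 2 were called in these pairs.

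Of 11 other T-box genes, 6 had a row and 5 were tested. The filter asked for 0.115 CPM, before scaling by TMM, in 4 libraries, and 3 of the 5 (Tbx20, Eomes and Tbx1) met it only through the libraries labelled IRF8 KO, where they were higher, so their levels are a description with no test between the labels. Tbx20, a heart and mesoderm gene, had 20 and 23 counts in MC010, 310 and 258 in MC011, and 0 in the 4 WT libraries. Against the floor it was at least 90.1-fold higher in MC011 than in MC654 and at least 6.78-fold higher in MC010, and MC010 and MC011 differed by a log2 difference of -3.78 (SE 0.35, adjusted p = 5.03e-07). Eomes, the T-box gene of early mesoderm and of lymphocytes, was at 2.76 to 3.1 CPM in the lines labelled IRF8 KO and at 0.034 to 0.204 CPM in those labelled WT. Tbx1, a pharyngeal mesoderm gene, was at 0.149 to 0.468 CPM against 0.0235 to 0.0906 CPM. The libraries of both labels did not overlap for these 3 genes. The filter favours such a gap for them, and how often all tested genes showed no overlap is not given here. No conclusion is drawn from the gap. The other 2 tested genes, Tbx6 (log2 difference between the labels -0.36) and Mga (-0.17), were not called, and Tbr1 was below the filter. Between MC654 and MC659, where 4.95% of all tested genes were called, none of the 5 was called by edgeR. Tbx20, with 0 counts in both of these lines, could not be called there.

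The limb bud mesenchyme regulators form the wider setting in which these factors act. Of 31 listed genes, 26 had a row and 20 were tested. Bmp4 and Isl1 passed the filter only through the libraries labelled IRF8 KO, where they were higher, and are given as levels with no test between the labels. Of the other 18 genes, 6 were higher and 1 lower in the lines labelled IRF8 KO, which is 38.9% of them, against 22.5% of all tested genes. Their median log2 difference was 0.32, against 0.021 over all genes. The list was chosen with earlier results of these data known, so this share and median may follow from the choice and are a description. The 6 were Fgf10, Msx1, Meis2, Grem1, Prrx2 and Prrx1. Prrx1 and Grem1 were raised mostly in MC010, at log2 differences of 1.64 and 2.09 above MC654. Prrx1 in MC011 was short of the threshold on size against MC654 (0.42) and MC659 (0.38). Grem1 in MC011 was short of it against MC654 (0.31) but called against MC659 (1.15). Fgf10, Msx1, Meis2 and Prrx2 were called in every pair of lines across the labels. Fgf10, the limb growth factor that T-box factors activate in the limb bud, was at 58.6 to 74 CPM against 0.922 to 1.66 CPM (log2 difference 5.79, SE 0.23, adjusted p = 3.06e-06). With counts summed per line, which leaves 2 lines per label, the edgeR p of Fgf10 was 5.89e-05 unadjusted and 0.0513 adjusted, and the calls of the other genes between the labels given here and below were lost as well. Bmp4, a secreted signal of limb and dermal mesenchyme, was at 11.7 to 12.4 CPM and had 0 to 2 counts in the WT libraries, so that MC011 was at least 332-fold above MC654. Isl1, which acts upstream of Fgf10 in the hindlimb field, was at 8.23 to 13.3 CPM against 0.0556 to 0.397 CPM. For Fgf10, Bmp4 and Isl1, the libraries of both labels did not overlap. For Bmp4 and Isl1 the filter favours such a gap, and the share of all genes without overlap is not given here. The T-box genes known upstream of Fgf10 in the limb, Tbx4 and Tbx5, were not analysed here.

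Other genes of the limb list differed between MC010 and MC011. Hoxc10, a hindlimb-level Hox gene, fell from 25.5 to 30.4 CPM in the WT libraries to 4.03 and 4.21 CPM in MC011 and 0.76 and 0.625 CPM in MC010 (log2 difference between the labels -3.54, SE 0.66, adjusted p = 0.00411). Meis2, a proximal limb homeobox gene, was at 177 and 178 CPM in MC010 and at 44.9 and 45.1 CPM in MC011, against 26.4 to 28.3 CPM in the WT libraries. Between MC010 and MC011, 6 of the 20 tested limb genes were higher in MC010 and 6 lower, against 31.6% called over all tested genes. Meis2 (log2 difference 1.98), the BMP antagonist gene Grem1 (1.78), Prrx1 (1.22), Meis1 (1.14), Msx2 (0.89) and Isl1 (0.64) were higher, and Alx1 (-2.91), Hoxc10 (-2.54), Emx2 (-1.47), Shox2 (-0.97), Gli3 (-0.81) and Prrx2 (-0.80) were lower. Between MC654 and MC659, 2 of the 20 tested limb genes were called, against 4.95% over all tested genes. They were Grem1 and Fgf10, both higher in MC654.

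**Figure D4:**
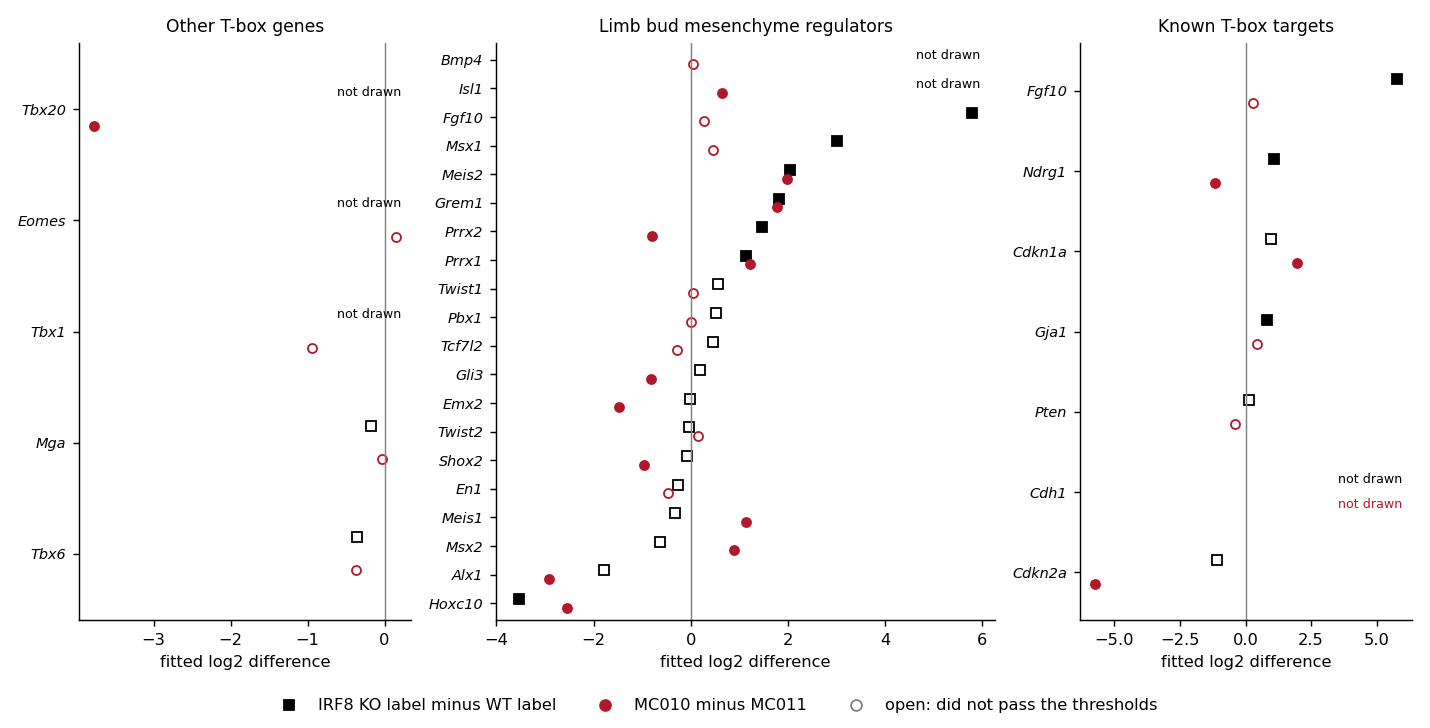
Fitted log2 differences (x axis, a separate scale in each panel) of the tested genes (y axis) of 3 lists, between the labels (squares) and between MC010 and MC011 (circles); filled points passed both thresholds and open points did not. Squares are not drawn for Tbx20, Eomes, Tbx1, Bmp4, Isl1 and Cdh1, which passed the filter through 1 label only, nor the circle of Cdh1, which had 3 counts or less in each library of MC010; 6 limb genes lie to the right with filled squares and Hoxc10 alone to the left at -3.54.

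Of 9 genes known as targets of T-box factors, 7 were tested, and Cdh1 passed the filter only through the libraries labelled WT. Of the other 6, 3 were higher and 0 lower between the labels by edgeR (Fgf10, Ndrg1 and Gja1), against 22.5% called over all tested genes. The median log2 difference of the 6 was 0.91, against 0.021 over all genes. This list, which shares Fgf10 with the limb list, was also chosen with earlier results of these data known. Its share and median may follow from that choice. The cell-cycle inhibitor genes on this list were not called between the labels but differed between MC010 and MC011. Cdkn2a, the senescence locus that Tbx2 and Tbx3 repress, was at 6.59 and 4.99 CPM in MC010, against 343 and 286 CPM in MC011 and 324 to 377 CPM in the WT libraries. MC010 was 53.4-fold lower than MC011, a log2 difference of -5.74 (SE 0.12, adjusted p = 1.19e-13). MC010 is also the line with the most Tbx2, while its Tbx3 was level with that of MC011, and no relation between these genes was tested. Cdkn1a, another cell-cycle inhibitor, was higher in MC010, at 31.2 and 26.2 CPM against 7.08 and 7.45 CPM in MC011 (1.98, SE 0.09, adjusted p = 5.78e-11). Cdh1, with 2 and 0 counts in MC010 and 38 and 18 in MC011, was at least 7.62-fold higher in MC011. Ndrg1 (-1.18) was also lower in MC010 than in MC011. It was at 52 and 50.8 CPM in MC010 and at 117 and 116 CPM in MC011. MC654 was at 31.7 and 30.1 CPM and MC659 at 48.5 and 48.3 CPM. For Ndrg1, MC010 was called against MC654 (0.74) but not against MC659 (0.09, adjusted p = 0.14 from edgeR). Tbx2 and Tbx3 repress the gap junction gene Gja1 in the heart. Gja1 was at 237 and 240 CPM in MC010, 176 and 180 CPM in MC011 and 109 to 127 CPM in the WT libraries.

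The genes whose log2 CPM followed each member most closely over the 8 libraries were found among 10688 tested genes with a mean log2 CPM of at least 1. For Osr2 they were Ston2, Gins4 and Wdr70, with Pearson's r from 0.9976 to 0.9983, and 633 genes had an r above 0.95. For Pitx1 they were Aebp1, Bmyc and Ror2 (0.9979 to 0.999), with 513 genes above 0.95. For Tbx3 they were Slc19a2, Gxylt2 and Slit2 (0.997 to 0.9985), with 610 genes above 0.95. For Osr1, whose order of lines fewer genes shared, they were Thra, Fads3 and Lrrc32 (0.9941 to 0.9961), with 117 genes above 0.95. For Tbx15 they were Timp2, Glud1 and Igf2bp1 (0.9974 to 0.9978), and for Tbx18 Rab33b, Tdp1 and Osbpl11 (0.9946 to 0.9953). The 8 libraries are 4 lines sequenced as 2 libraries each, so these values describe shared orders of 4 lines and carry no test.

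The nearest genes of the table on each side of the members were examined as well. Stk3, a kinase gene 117.2 kb from Osr2, was at 74.4 to 85.2 CPM in the lines labelled IRF8 KO and at 48.3 to 54.1 CPM in those labelled WT (log2 difference 0.66, SE 0.06, adjusted p = 0.000176), far less than Osr2. Wars2, 1.2 kb from Tbx15, was lower in MC010 than in MC011 (-0.66, SE 0.08, adjusted p = 2.31e-06), as Tbx15 was, and not called between the labels (0.25, adjusted p = 0.307). Nt5e, 595.9 kb from Tbx18, was lower in MC010 than in MC011 (-1.47, SE 0.30, adjusted p = 0.00048). Med13l and Rbm19 beside Tbx3, 905.2 kb and 431.7 kb away, were called in neither comparison. Catsper3, 16.1 kb from Pitx1, was below the filter. The antisense gene Gm47071 lies 166.1 kb from Pitx1 by the positions deposited with the counts, while GENCODE annotates it across Pitx1. Gm47071 was at 0.18 CPM or less as the mean of any line, and it passed the filter only through the libraries labelled WT. Beside Osr1, Gm5182 at 570.6 kb was lower under the IRF8 KO label (-0.95, SE 0.27, adjusted p = 0.0233). Beside Tbx2, Brip1 at 216.2 kb was higher in MC010 than in MC011 (0.70, SE 0.08, adjusted p = 7.99e-07). Bcas3, Cep162 and D030062O11Rik were tested and called in neither comparison, and the other neighbours were below the filter.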

How the data were processed

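RNA from 8 libraries, 2 for each of 4 cell lines, had been sequenced from stranded mRNA libraries. The authors aligned the reads to mm10 (GRCm38.p6) and deposited a table of raw counts per gene and library. Their processing notes name STAR 2.7.3a, HTSeq 0.11.2 and DESeq2, and the methods text gives other versions of the aligner and counter. Whether counting used the strand is not given in the sources used here. The deposited table also holds a signal per library (the count scaled by a size factor) and the authors' own comparison of the genotypes, as a mean, a score, a log2 fold change and its error, and p-values raw and adjusted, none of which was used. The lowest total of a row over the 8 libraries was 20 counts. The sex chromosomes were not analysed here.

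Tests on the raw counts used edgeR 4.0.16 (R 4.3.3). Genes were kept by filterByExpr on the label (15153 of 18768), normalised by TMM and tested by the robust quasi-likelihood method, with p-values adjusted over all of them (Benjamini-Hochberg). Genes were called at an adjusted p under 0.05 and a log2 difference above 0.59 in size. One fit compared the 4 libraries of each label, and another, with 1 group per line, compared the lines. Standard errors came from the log2 difference and the F statistic. The 2 libraries of a line come from the same cell line, so p-values measure the spread between libraries, and those between labels treat them as independent. The libraries of a line differed beyond sampling noise (chi-square per gene 7.19 to 12.2) and were kept apart.

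Exon lengths for RPKM, positions of the members and transcript sequences came from GENCODE vM21 on the same build. In it, 18742 of the 18768 gene identifiers were found. The positions of neighbouring genes were those deposited with the counts. The members and all gene lists (other T-box genes, limb bud mesenchyme regulators, T-box targets and cell type markers) were chosen with earlier results of these data known. Some genes of these lists are not reported here and were left out of their counts. Named are all members, up to 6 called genes of each list with the largest difference, the 3 genes most like each member by Pearson's r, the nearest gene of the table on each side, and Irf8. Genes named beyond this rule were chosen after their values were seen. They are further called genes of the limb list, list genes given as not called, and some marker genes. These markers are Vim, Fap, Pdgfra, Col1a1, Col1a2, Thy1, Ptprc, Cd68, Cd79a, Pax3, Myod1, Des, Krt8, Krt18, Epcam and Krt14. Alternatives were DESeq2 1.42.0, upper-quartile scaling, no filter, the library number as a block, each library or line left out, counts summed per line, limma-voom (limma 3.58.1) with the line as a random block, and no threshold on size. The fits were tested on simulated counts with 200 changed genes. All 200 were recovered in each comparison, with 2 to 4 false calls. For the comparison of the labels, the simulated lines of a label did not differ from each other. The simulation therefore cannot show how that fit behaves where such lines differ, as they did here. Library numbers did not pair the samples: deviations of same-numbered libraries from their line means correlated between -0.03 and 0.06.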

Additional observations from a re-analysis of the deposited data

Results flagged for a closer look

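Of 14 sets of 4 libraries examined (7 members under each label), 1 held a library far from the others by Dixon's criterion. Chance alone gives about 1 in 20 where the 4 libraries are alike. Each set here held 2 lines, so that rate need not apply. The set was Tbx3 under the IRF8 KO label. Its library 2 of MC011 was at 42.8 CPM, against 45.2 to 45.5 CPM in the other 3 libraries. Without that library, the Tbx3 difference between the labels was called as before. The cause was not tested.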

How the results depend on the processing

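The calls between the labels rested on how libraries of one line were treated. With counts summed per line, 0 genes and 0 members were called by edgeR, although 3658 genes and 2 members had an unadjusted p under 0.05, and Tbx3 (0.78) and Tbx15 (1.63) kept their direction. Fewer samples enter that fit. With the line as a random block, limma-voom called 1886 genes and the same number of members as edgeR on libraries, 2, and Osr1 turned to -0.40. With MC010 left out, Tbx18 (0.16) and Pitx1 (0.21) changed sign. With MC011 left out, 5827 genes and 5 members were called, Pitx1 was at -6.04 and Osr1 at -1.83. With MC654 left out 2079 genes and 1 member were called, and Osr1 was at -0.34, and with MC659 left out 1884 genes and 1 member. In both, Tbx15 (1.63 and 1.60) missed the threshold and Tbx3 passed it. With no threshold on size, 5675 genes were called between the labels, 9550 between MC010 and MC011 and 2198 between MC654 and MC659. The cause of these shifts was not tested.

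With each library left out in turn, 2908 to 3623 genes were called between the labels, 4525 to 4943 between MC010 and MC011, and 555 to 759 between MC654 and MC659. The members called numbered 2 in all 8 fits between the labels, 3 to 4 between MC010 and MC011, and 1 between MC654 and MC659. Members near 0 changed sign there: Osr1 between the labels ran from -0.35 to 0.39, Tbx3 between MC010 and MC011 from -0.01 to 0.09, and between MC654 and MC659 Tbx15 from -0.01 to 0.07, Tbx18 from -0.02 to 0.04 and Pitx1 from 0 to 0.29. Fits that left a line with 1 library assumed that it varies like the others.

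A replicate block, with the library number as a term, gave 3106 called genes between the labels, 4786 between MC010 and MC011 and 770 between MC654 and MC659, with no member's call changed. The numbers did not pair the samples. DESeq2, upper-quartile scaling and no filter also kept every call of the tested members, and without the filter, or with DESeq2, 1 further member, Tbx2, was called higher in MC010 than in MC011. At 3 counts per library, levels under about 0.04 CPM could not be told from the floor, which touched Tbx2 in MC011.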
